A study of Mus musculus with 15 samples.

Results

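The mouse proximal convoluted tubule and the distal convoluted tubule were compared at the level of RNA in normal kidneys. The comparison uses the 8 libraries labelled wild type among the 15 libraries of the series: 4 of proximal tubule (replicates 1, 2, 3 and 6) and 4 of distal convoluted tubule (replicates 1, 2, 3 and 4). The other 7 libraries, 3 proximal and 4 distal, come from mice labelled as knockouts of Cldn10a and were used only to see whether the same differences recur. Tubules were picked from slices of mouse kidney after enzymatic digestion, and 10 proximal or about 20 distal tubules per kidney were pooled, per the labels. Not given in the sources used here are the strain, age and sex of the mice and whether each library is a separate mouse; the p-values therefore reflect only the variation among these samples, which may in part be technical. No treatment is named, and both segments come from mice on a standard diet. In the sample descriptions, the number of proximal replicate 6 lies far from those of the other wild-type libraries. What these numbers stand for is not given.

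The proximal convoluted tubule takes back most of what the glomerulus filters, with sodium-coupled carriers in a brush border membrane, and it also makes glucose, activates vitamin D and secretes organic ions. The distal convoluted tubule follows the thick ascending limb and the macula densa, takes up sodium chloride through the thiazide-sensitive cotransporter, and sets the final loss of magnesium and much of that of calcium. It leads into the connecting tubule, where the epithelial sodium channel, potassium secretion and acid-base transport by intercalated cells begin.

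Levels are given as CPM, counts per 1000000 counts of a library after scaling; ± after a CPM is the SD over 4 libraries, and ± after a log2 difference is its SE. Differences are proximal minus distal, so a positive log2 value is higher in proximal tubule. Genes were called with a Benjamini-Hochberg adjusted p under 0.05 in limma over all tested genes, and every adjusted p below comes from that fit unless another setting is named. Library values are listed in the order of the replicate numbers above. Where a segment had no count of a gene in any of its libraries, the fold is a lower bound set against 3 counts per library, and where it had 1 to 3 counts in all, the fold is a ratio of means with its 95% counting interval; both cover counting error only. A difference against a segment near 0 rests on few counts there, so where leaving out 1 library moved a printed log2 difference by more than 1.5-fold, the value without that library follows it.

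The libraries held 36056160 to 47061084 counts. The share of mitochondrial ribosomal RNA was 57.8 to 65.3% in proximal and 61.1 to 71.6% in distal tubule (exact two-sided permutation p = 0.114). Nuclear protein-coding genes took 15.6 ± 3.01% in proximal and 9.71 ± 1.47% in distal tubule (SD, n = 4 each; exact permutation p = 0.0286, the smallest that 4 against 4 allows). The segments were apart on the first principal component, which held 84.6% of the variance of log2 levels, while the next held 3.23%.

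The labels were first set against markers of nephron segments and other kidney cells. Summed over 12 genes, early proximal markers had 5036 to 5977 CPM in proximal and 12.6 to 19.4 CPM in distal libraries, and 12 of 12 were called higher in proximal tubule. Distal convoluted tubule markers had 31.4 to 43.8 CPM and 1516 to 1822 CPM, with 11 of 11 tested called higher in distal tubule. The distal pools also held markers of their neighbours. Connecting tubule markers, among them Calb1, S100g and Klk1, reached 7255 to 9692 CPM there, thick ascending limb markers 816 to 1327 CPM, intercalated cell markers 207 to 279 CPM, principal cell markers 159 to 217 CPM and endothelial markers 64.2 to 86.5 CPM. In proximal pools the same lists had 95.9 to 107 CPM (mostly Car2), 1.1 to 2.62 CPM, 0.211 to 0.673 CPM, 17.8 to 51.8 CPM and 15.3 to 29.9 CPM. Egf alone, of the thick limb list, had 472 to 762 CPM in distal libraries. Scnn1g and Hsd11b2 were in both the connecting tubule and the principal cell list. Calb1, S100g, Trpv5, Slc8a1, Egf and Kcnj1 are also described below as genes of distal ion transport. How specific each list is to its segment was not tested, so the sums do not give the share of a neighbouring segment. Straight proximal markers had 300 to 544 CPM in proximal pools and 32.1 to 36.4 CPM in distal pools. The 10 podocyte markers summed to 7.96 to 9.53 CPM in proximal and 13.5 to 18.7 CPM in distal libraries, and of 4 tested, 1 was called higher in proximal (Magi2, at 4.53 ± 0.993 against 1.21 ± 0.261 CPM) and 3 in distal tubule (among them Podxl, at 3.45 ± 0.776 against 12.9 ± 2.7 CPM). The podocyte genes Nphs1, Wt1 and Ptpro were at or near 0 in both (at most 0.0201 CPM as a mean), as were Hba-a1 and Hba-a2. The part of these other cells in the differences below was not tested. In such pools fewer cells of a type and less RNA per cell cannot be told apart.

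**Figure D1:**
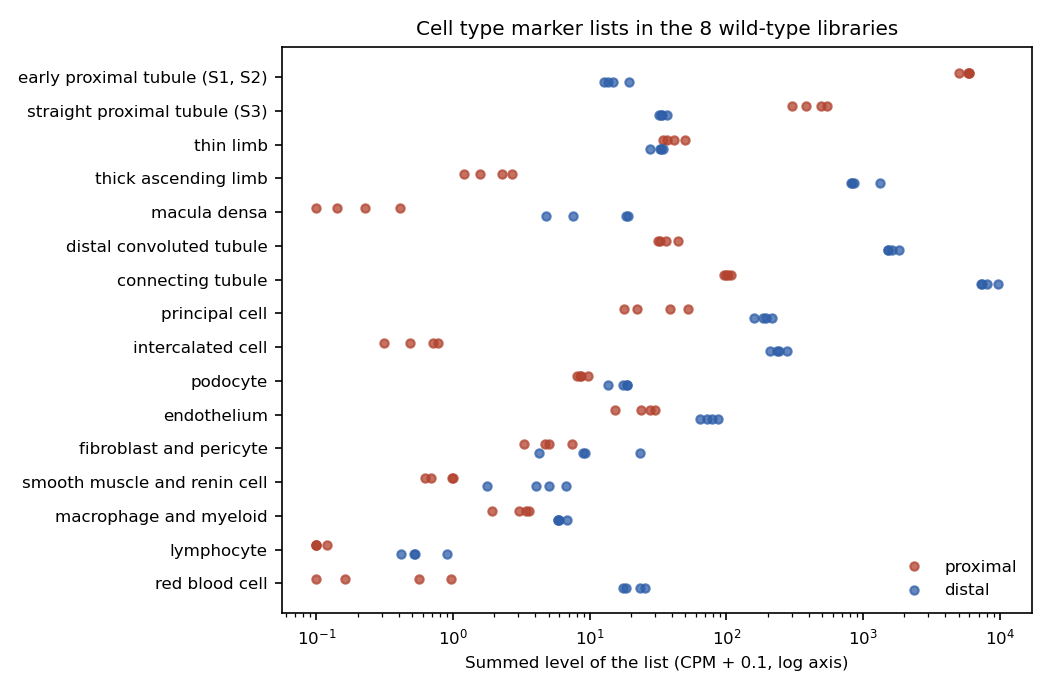
Summed CPM of 16 cell type marker lists in each wild-type library, on a log axis after adding 0.1; red points are the 4 proximal and blue points the 4 distal libraries. Early proximal markers reach 5036 to 5977 CPM in proximal libraries, and the distal libraries hold connecting tubule, thick limb and intercalated cell markers beside those of the distal convoluted tubule.

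Of 54752 genes, 13616 had enough counts to be tested. In wild type 3210 of them (23.6%) were called higher in proximal and 3421 (25.1%) higher in distal tubule, and the median log2 difference over all tested genes was −0.02. With a difference of at least 2-fold also asked for, 2185 (16.0%) were higher in proximal and 2296 (16.9%) higher in distal tubule. For 4124 of these 4481 genes, no proximal library overlapped a distal one. Called and at least 32-fold apart were 568 genes higher in proximal and 519 higher in distal tubule. The split depends on the scaling: with libraries scaled to the total of nuclear protein-coding counts, 2455 were called higher in proximal and 4695 in distal tubule, and the median of all tested genes moved from −0.02 to −0.29. Each gene list below is to be read against these shares.

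Per kb of exon, the highest nuclear protein-coding gene in proximal tubule was Gpx3, which encodes the glutathione peroxidase that the kidney releases into plasma. Gpx3 had 5706, 5861, 8606 and 4760 CPM in the proximal libraries and 80.6, 61.1, 70.7 and 74.9 CPM in the distal libraries (log2 difference 6.41 ± 0.15, adjusted p = 3.0e-14), and its level per kb was 3438 against 39.6 CPM. With no filter on low counts its adjusted p was 0.348 at a log2 difference of 6.55. The highest in distal tubule were Klk1, tissue kallikrein, and S100g, the small calcium-binding protein calbindin-D9k. Klk1 had 3034, 3012, 4102 and 3547 CPM in the distal libraries and 0.86, 0.8, 0.576 and 0.881 CPM in the proximal libraries (log2 difference −12.10 ± 0.28, adjusted p = 2.7e-14). S100g had 1259, 1311, 1866 and 1178 CPM in the distal libraries and 1.09, 1.16, 1.5 and 2.48 CPM in the proximal libraries (log2 difference −9.88 ± 0.28, adjusted p = 2.4e-13). All 3 genes had their 4 high libraries within 2-fold of one another and far from the low segment.

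Among protein-coding genes with at least 50 CPM, the largest differences toward proximal tubule included those of Cyp2d26, Slc13a1, Slc5a12, Acmsd, Apob, Aadac, Slc47a1, Spp2, Gatm and Ugt2b5. These encode transporters, drug- and steroid-handling enzymes and secreted proteins. Gatm (ENSMUSG00000027199; GRCm38 chromosome 2, 122594467 to 122611303, - strand), which makes the creatine precursor guanidinoacetate, had 561, 553, 641 and 437 CPM in the proximal libraries and 0.354, 0.446, 0.158 and 0.241 CPM in the distal libraries (log2 difference 10.87 ± 0.47, adjusted p = 3.8e-11). Apob, the structural protein of lipoproteins made by liver and gut, had 132, 199, 299 and 27 CPM in the proximal libraries and 0.0708, 0.0939, 0 and 0.0658 CPM in the distal libraries (log2 difference 11.10 ± 3.17, adjusted p = 0.00832; 10.41 without distal 3 and 11.80 without proximal 6). Its call was lost without distal replicate 1 (adjusted p = 0.0601) or distal replicate 2 (0.0515), or with no filter on low counts (0.212). Toward distal tubule they were Defb1, Sfrp1, Umod, Calb1, Klk1, Kcnj1, Cldn8, Abca13, Slc12a3, Klk1b5, Scnn1g and Clu. Defb1, an epithelial defensin released into urine, had 327, 233, 451 and 330 CPM in the distal libraries and 0.021, 0.0421, 0 and 0.0696 CPM in the proximal libraries (log2 difference −13.24 ± 1.0, adjusted p = 1.8e-08, or −12.62 without proximal 3). Sfrp1, a secreted Wnt antagonist, had 0.0508 ± 0.0314 against 372 ± 97.3 CPM, and Clu, which encodes the chaperone clusterin, had 0.158 ± 0.119 against 276 ± 49.3 CPM. Abca13, a large ABC transporter of little-known function, had 724, 688, 706 and 828 CPM in the distal libraries and 0.398, 0.505, 0.0961 and 0.209 CPM in the proximal libraries (log2 difference −11.45 ± 0.43, adjusted p = 7.0e-12). Counting by gene could split reads among Klk1, Klk1b5 and the other near-identical kallikrein genes, so their separate levels are uncertain.

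**Figure D2:**
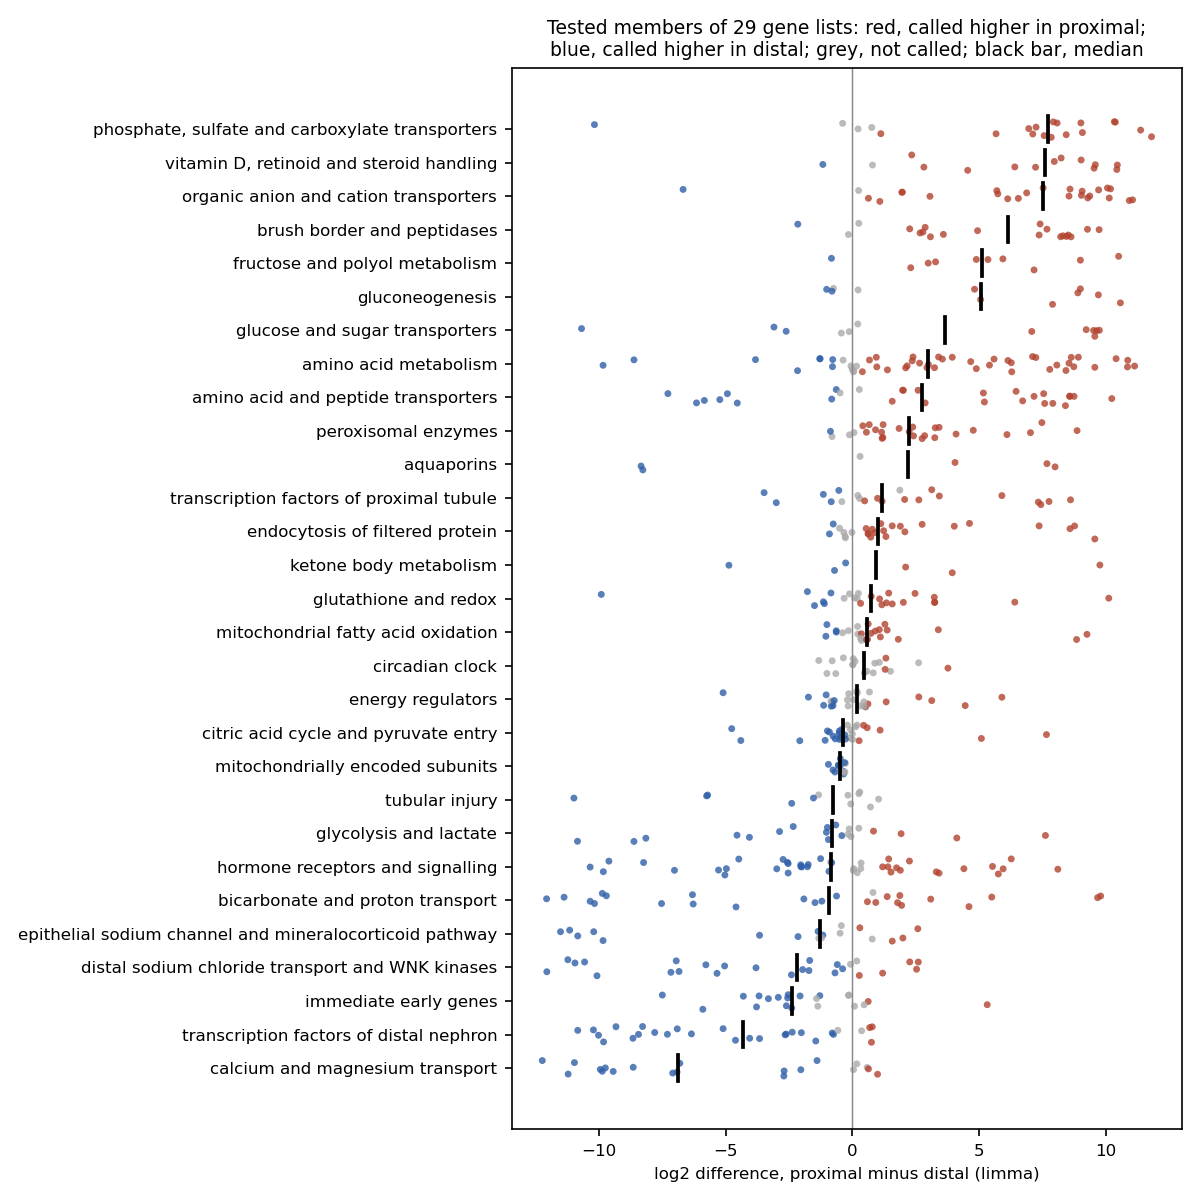
Each point is 1 tested gene, placed by its log2 difference (proximal minus distal) in 1 of 29 gene lists; red and blue points were called higher in proximal and in distal tubule, grey points were not called, and black bars are medians. The medians run from 7.71 for phosphate, sulfate and carboxylate transporters to −6.88 for calcium and magnesium transport.

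Of 12 tested sugar transporters, 6 were higher in proximal and 3 in distal tubule (median log2 difference 3.64). The low-affinity sodium-glucose cotransporter of the brush border, Slc5a2 (SGLT2; ENSMUSG00000030781; GRCm38 chromosome 7, 128265657 to 128272430, + strand), had 59.1, 65.4, 82.3 and 40.7 CPM in the proximal libraries and 0.0708, 0.0939, 0.0789 and 0.0439 CPM in the distal libraries (log2 difference 9.52 ± 0.92, adjusted p = 2.7e-07). The basolateral glucose exit carrier Slc2a2 (GLUT2) had 103, 97.1, 94.6 and 99 CPM in the proximal libraries and 0.0708, 0.329, 0.0789 and 0.0658 CPM in the distal libraries (log2 difference 9.64 ± 0.51, adjusted p = 3.8e-10). Proximal libraries were high and distal ones near 0 for both steps of the path. Slc2a5 (GLUT5), a fructose carrier, had 11.6 ± 2.81 against 0 ± 0 CPM and was at least 145-fold higher in proximal, adjusted p = 2.2e-08. Slc5a1 (SGLT1), the high-affinity cotransporter of the straight segment, was not called, at 5.11 ± 4.47 against 2.58 ± 2.27 CPM (log2 difference 0.21, adjusted p = 0.888), but without proximal replicate 3 its log2 difference was 1.64 (adjusted p = 0.0103). It was 0.84 without distal 4 and −0.47 without proximal 6. In distal tubule other members of the exit family were high. Slc2a1 (GLUT1) had 27.3, 36.7, 33.7 and 35.7 CPM in the distal libraries and 4.86, 6.82, 5.92 and 4.34 CPM in the proximal libraries (log2 difference −2.62 ± 0.16, adjusted p = 1.6e-09), and Slc2a4 (GLUT4), the insulin-responsive carrier of muscle and fat, had 16.9, 18.6, 17.6 and 17.1 CPM in the distal libraries and 0, 0, 0 and 0 CPM in the proximal libraries (at least 277-fold higher in distal, adjusted p = 2.2e-10). The urate carrier Slc2a9 was also higher in distal tubule, at 2.59 ± 1.19 against 21.3 ± 6.62 CPM.

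For amino acids and peptides 18 of 28 tested carriers were higher in proximal and 8 in distal tubule (median 2.73). The brush border neutral amino acid carrier Slc6a19 had 246, 191, 173 and 271 CPM in the proximal libraries and 0.672, 1.53, 1.32 and 0.461 CPM in the distal libraries (log2 difference 7.91 ± 0.39, adjusted p = 1.6e-10). Its partner protein Cltrn (collectrin) had 814, 792, 849 and 716 CPM in the proximal libraries and 3.93, 3.54, 3.55 and 4.28 CPM in the distal libraries (log2 difference 7.69 ± 0.15, adjusted p = 4.1e-15). The cystine transporter is a pair of the heavy chain Slc3a1 and the light chain Slc7a9, with 62.9 ± 4.14 against 0.186 ± 0.135 CPM and 30.7 ± 4.05 against 0.123 ± 0.117 CPM. At the basolateral side Slc7a7 had 87.6 ± 17.6 against 0.288 ± 0.243 CPM and Slc7a8 62.6 ± 21.1 against 16 ± 5.32 CPM. Slc1a1, the glutamate carrier, had 48.3 ± 8.71 against 0.558 ± 0.302 CPM. The distal members were lower in level: Slc1a5, a glutamine carrier, had 0.145 ± 0.0894 against 9.01 ± 1.42 CPM and Slc38a2 10.2 ± 2.09 against 17.7 ± 1.49 CPM. Slc7a5 and Slc7a6, light chains often found in growing cells, were called higher in distal tubule at 0.0106 ± 0.0123 against 1.14 ± 0.494 CPM and 0.0535 ± 0.0528 against 1.8 ± 0.612 CPM. Of all Slc genes, 135 of 263 were higher in proximal and 72 in distal tubule.

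Phosphate, sulfate and carboxylate carriers had a median of 7.71, the highest of the 29 lists. With genes at 0 in 1 segment set at their bound it was 7.50, just under the 7.53 of organic anion and cation transporters. Of the list, 16 of 20 tested members were higher in proximal and 1 in distal tubule. Slc34a1 (NaPi-IIa; ENSMUSG00000021490; GRCm38 chromosome 13, 55398187 to 55415592, + strand), the main phosphate carrier of the brush border, had 1194, 1272, 1357 and 993 CPM in the proximal libraries and 0.496, 1.31, 0.632 and 1.18 CPM in the distal libraries (log2 difference 10.38 ± 0.31, adjusted p = 6.8e-13). Slc34a3 (NaPi-IIc) had 17.4 ± 3.88 against 0 ± 0 CPM, and the phosphate exporter Xpr1 60 ± 3.76 against 27.6 ± 3.06 CPM. The sodium-sulfate carrier Slc13a1 had 108, 78.2, 81.9 and 110 CPM in the proximal libraries and 0, 0.0469, 0 and 0.0219 CPM in the distal libraries (5489-fold higher in proximal, counting interval 1653 to 23435, adjusted p = 3.8e-09). Slc5a12, a lactate carrier, had 257, 211, 209 and 165 CPM in the proximal libraries and 0.0708, 0.282, 0 and 0.0877 CPM in the distal libraries (log2 difference 11.38 ± 0.83, adjusted p = 1.3e-08; 12.04 without distal 2 and 10.52 without distal 3), and the dicarboxylate carrier Slc13a3 95.8 ± 15.7 against 0.199 ± 0.102 CPM. The exception was the monocarboxylate carrier Slc16a7 (MCT2). It had 328, 330, 338 and 373 CPM in the distal libraries and 0.419, 0.168, 0.173 and 0.557 CPM in the proximal libraries (log2 difference −10.19 ± 0.38, adjusted p = 7.4e-12), while its relatives Slc16a1, Slc16a4, Slc16a9, Slc16a12 and Slc16a14 were all called higher in proximal tubule. Of 12 tested Slc16 genes, 9 were higher in proximal and 2, Slc16a7 among them, in distal tubule. Slc16a7 was among the markers used above for distal convoluted tubule.

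Secretion of organic anions and cations was likewise on the proximal side (23 of 25 members higher in proximal, 1 in distal, median 7.53). The basolateral anion exchangers Slc22a6 (OAT1) and Slc22a8 (OAT3) had 119 ± 33 against 0.0926 ± 0.0412 CPM and 139 ± 26.2 against 0.274 ± 0.293 CPM. The basolateral cation carrier Slc22a2 (OCT2) had 43.1 ± 11.4 against 0.0552 ± 0.0838 CPM. The apical exit carrier Slc47a1 (MATE1) had 85.2, 114, 109 and 112 CPM in the proximal libraries and 0, 0.0704, 0 and 0.285 CPM in the distal libraries (log2 difference 11.06 ± 0.81, adjusted p = 1.3e-08; 10.25 without distal 3 and 11.95 without distal 4). Abcc2 (MRP2) and Abcg2 (BCRP), apical pumps, had 85.8 ± 6.02 against 0.268 ± 0.188 CPM and 158 ± 25.6 against 1.33 ± 0.459 CPM. The apical urate carriers Slc22a12 (URAT1) and Slc17a3 had 26.1 ± 4.81 against 0.105 ± 0.18 CPM and 80.3 ± 14.9 against 0.117 ± 0.0542 CPM. The member on the distal side was Slco4a1, at 0.0144 ± 0.0288 against 1.77 ± 0.625 CPM. With protein-coding scaling 21 members were called higher in proximal tubule.

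The receptors for filtered protein were among the most abundant proximal RNAs. Lrp2 (megalin; ENSMUSG00000027070; GRCm38 chromosome 2, 69424340 to 69586065, - strand) had 1756, 1879, 1762 and 1453 CPM in the proximal libraries and 8.78, 11.5, 10.3 and 10.6 CPM in the distal libraries (log2 difference 7.37 ± 0.13, adjusted p = 2.5e-15). Cubn (cubilin), which binds vitamin B12 carriers and albumin, had 489, 403, 406 and 390 CPM in the proximal libraries and 1.06, 0.657, 0.132 and 0.921 CPM in the distal libraries (log2 difference 9.57 ± 0.43, adjusted p = 4.9e-11; 8.93 without distal 3), and its membrane partner Amn 7.58 ± 1 against 0.00548 ± 0.011 CPM (1383-fold higher in proximal, counting interval 210 to 46375, adjusted p = 8.1e-09). The adaptor Dab2 had 204 ± 26.5 against 12.8 ± 2.7 CPM and the folate receptor Folr1 58.4 ± 5.27 against 0.14 ± 0.0394 CPM. In all 19 of 26 tested members of the endocytic list were higher in proximal and 2 in distal tubule (median 1.0). The vesicle and lysosome members varied among themselves. The lysosomal protease Ctsh had 31.5 ± 3.13 against 1.28 ± 0.286 CPM (log2 difference 4.62 ± 0.23), a larger log2 difference than the 4.02 of Dab2. Lamp1 had 345 ± 24.4 against 139 ± 10.3 CPM, the chloride-proton exchanger Clcn5 46.4 ± 3.52 against 28.1 ± 2.78 CPM, and Rab7 102 ± 8.51 against 54.9 ± 3.63 CPM. The members on the distal side were Ctsd, at 26.2 ± 1.82 against 44.3 ± 3.92 CPM, and Rab5b, at 17 ± 1.03 against 32.2 ± 3.44 CPM. The smaller differences move with the scaling, since protein-coding scaling gave 17 members higher in proximal and 6 in distal tubule.

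Brush border genes and ectopeptidases were higher in proximal tubule in 17 of 20 cases (median 6.15). The microvillar actin bundler Vil1 had 23.2 ± 3.73 against 0.0529 ± 0.061 CPM, the microvillar motor Myo7b 17.1 ± 4.06 against 0.0117 ± 0.0235 CPM and the scaffold Pdzk1 36.6 ± 7.14 against 0.117 ± 0.0695 CPM. Among peptidases Mep1a (meprin A) had 105 ± 28.9 against 0.335 ± 0.109 CPM, Dpep1 35.5 ± 13.3 against 0.0892 ± 0.0353 CPM and Ggt1 (gamma-glutamyltransferase) 51.9 ± 8.97 against 8.13 ± 1.87 CPM. Mme (neprilysin), a peptidase often used to mark brush border, was the exception. Mme had 40.6, 45, 51.4 and 53.6 CPM in the distal libraries and 8.97, 10.1, 10.7 and 13.2 CPM in the proximal libraries (log2 difference −2.16 ± 0.14, adjusted p = 2.8e-09), so every distal library exceeded every proximal library. The microvillar linker Ezr was not called, at 47.8 ± 11.8 against 39.4 ± 4.46 CPM (adjusted p = 0.204; 0.0285 without proximal replicate 6). Kap, an androgen-responsive gene of unknown function, and Spink1, a trypsin inhibitor, lie outside these lists and were picked with their values known; Kap had 713 ± 464 against 1.39 ± 0.929 CPM (adjusted p = 9.8e-08, or 0.104 with no filter) and Spink1 76.3 ± 3.12 against 0.0673 ± 0.0846 CPM.

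Bicarbonate and proton transport was divided between the segments, with 11 of 26 tested genes higher in proximal and 14 in distal tubule (median −0.92). The basolateral sodium-bicarbonate cotransporter Slc4a4 (NBCe1; ENSMUSG00000060961; GRCm38 chromosome 5, 88886818 to 89239653, + strand) had 1029, 871, 887 and 886 CPM in the proximal libraries and 0.814, 2.28, 0.605 and 0.855 CPM in the distal libraries (log2 difference 9.80 ± 0.30, adjusted p = 7.2e-13). The apical sodium-proton exchanger Slc9a3 (NHE3) had 33.9, 22.2, 18.8 and 31.2 CPM in the proximal libraries and 2.69, 1.34, 0 and 2.22 CPM in the distal libraries (log2 difference 5.50 ± 0.93, adjusted p = 0.000117; 3.71 without distal 3 and 6.29 without distal 4). The membrane carbonic anhydrases Car4 and Car14 had 25 ± 4.6 against 1.03 ± 0.404 CPM and 19.3 ± 5.11 against 0.0147 ± 0.0177 CPM, and cytosolic Car2 97 ± 5.12 against 51.7 ± 9.28 CPM. On the distal side stood the transporters of intercalated cells. The proton pump subunits Atp6v0d2 and Atp6v1g3 had 0 ± 0 against 46.4 ± 8.31 CPM and 0.065 ± 0.0517 against 61 ± 11.8 CPM. Slc26a4 (pendrin), a chloride-bicarbonate exchanger, had 37.3, 40.4, 49.8 and 38 CPM in the distal libraries and 0.377, 0.105, 0.211 and 0.232 CPM in the proximal libraries (log2 difference −7.54 ± 0.45, adjusted p = 1.2e-09). Slc4a1 (band 3) had 0.0116 ± 0.0232 against 20.8 ± 3.78 CPM and Slc4a9 0.0158 ± 0.0316 against 20 ± 2.15 CPM. Band 3 is also a protein of red blood cells, whose globin genes Hba-a1 and Hba-a2 had means of at most 0.0517 CPM. Foxi1, the transcription factor of intercalated cells, had 0.0232 ± 0.0464 against 22.8 ± 5.64 CPM, and the 12 tested intercalated markers summed to 207 to 279 CPM in distal pools. The part of intercalated cells in these differences was not tested.

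Of 6 tested aquaporins, 3 were higher in proximal tubule and 2 in distal tubule. Aqp1, the constitutive water channel of the proximal tubule, had 33, 30.1, 26.9 and 37.2 CPM in the proximal libraries and 0.319, 0.0704, 0.158 and 0.132 CPM in the distal libraries (log2 difference 7.68 ± 0.53, adjusted p = 6.5e-09). Aqp11, a channel of intracellular membranes, had 23.6 ± 2.06 against 1.55 ± 0.556 CPM, and the glycerol channel Aqp7 5.89 ± 1.03 against 0.0121 ± 0.014 CPM. Aqp2, the vasopressin-regulated channel of principal cells, had 0 ± 0 against 4.37 ± 2.53 CPM, and Aqp6, a channel of intercalated cells, 0.0285 ± 0.044 against 7.42 ± 0.889 CPM. Of 14 tested claudins, which seal or open the path between cells, 5 were higher in proximal and 6 in distal tubule. Cldn2, which forms a pore for cations and water, had 146, 182, 150 and 139 CPM in the proximal libraries and 0.46, 0.751, 0.0789 and 0.154 CPM in the distal libraries (log2 difference 9.16 ± 0.52, adjusted p = 8.2e-10). Cldn10, whose claudin-10a form is targeted in the knockout mice, had 11.3, 29.1, 29.1 and 17.9 CPM in the proximal libraries and 0.283, 0.0704, 0.105 and 0.483 CPM in the distal libraries (log2 difference 6.72 ± 0.93, adjusted p = 1.4e-05). Counts are per gene, so its isoforms were not separated. Cldn8, a claudin of the distal nephron, had 92.1, 74.8, 91.7 and 68.8 CPM in the distal libraries and 0, 0.105, 0.0384 and 0 CPM in the proximal libraries (log2 difference −11.46 ± 0.77, adjusted p = 4.9e-09; −12.12 without proximal 2), and Cldn7 and Cldn4 had 0 ± 0 against 4.79 ± 0.829 CPM and 0.0058 ± 0.0116 against 3.14 ± 1.39 CPM.

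**Figure D3:**
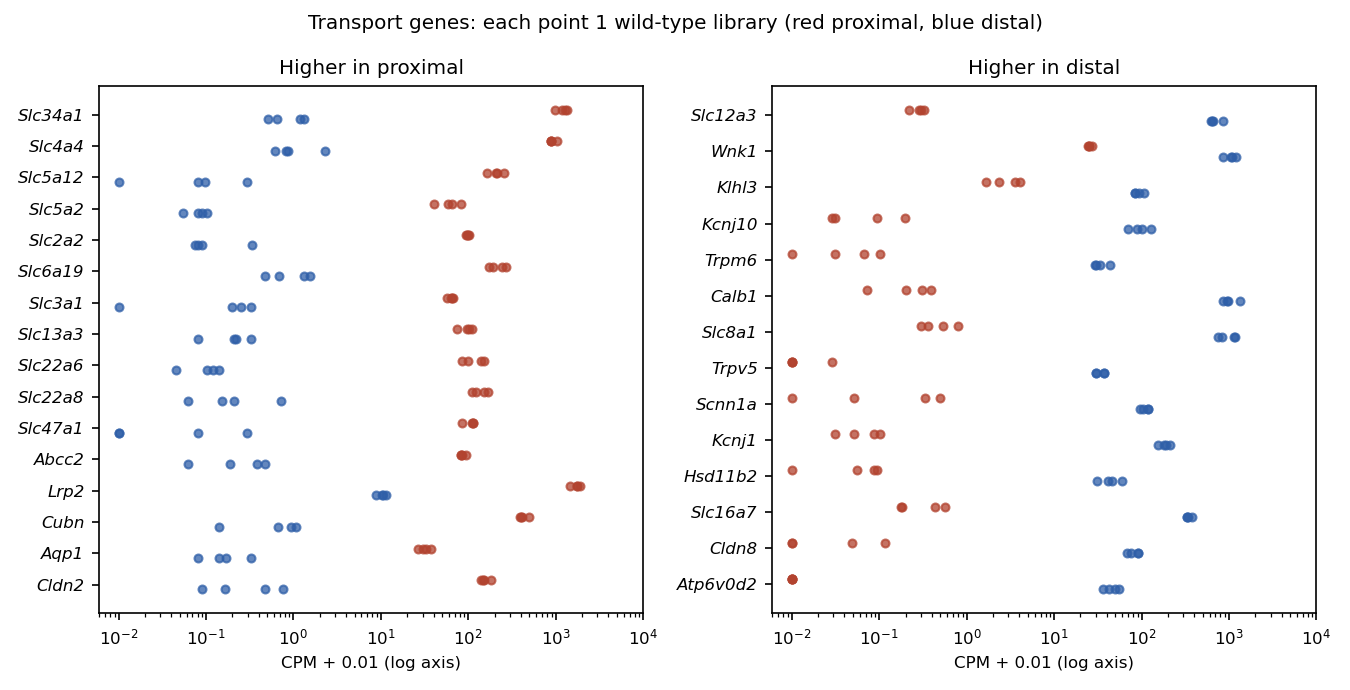
CPM of 30 transport genes in each wild-type library (log axis after adding 0.01); red points are the 4 proximal and blue points the 4 distal libraries, so points at the left edge are counts of 0. No proximal library overlaps a distal library for any gene shown, and the gap is narrowest for Klhl3, at 2.9 against 92.6 CPM.

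The salt transport machinery of the distal convoluted tubule made up the opposite pole. In the list of chloride cotransporters, WNK kinases and basolateral partners, 19 of 26 tested genes were higher in distal and 5 in proximal tubule (median −2.19). Slc12a3 (NCC; ENSMUSG00000031766; GRCm38 chromosome 8, 94329201 to 94366214, + strand), the thiazide-sensitive cotransporter, had 634, 649, 615 and 845 CPM in the distal libraries and 0.294, 0.316, 0.211 and 0.278 CPM in the proximal libraries (log2 difference −11.24 ± 0.41, adjusted p = 5.9e-12). The kinase gene Wnk1, which regulates it and has a kidney-specific short form, had 844, 1080, 1055 and 1210 CPM in the distal libraries and 25.3, 24.8, 27.2 and 24.4 CPM in the proximal libraries (log2 difference −5.35 ± 0.12, adjusted p = 2.1e-14). Wnk4 had 2.37 ± 0.301 against 33.3 ± 6.35 CPM, the downstream kinase Stk39 (SPAK) 0.399 ± 0.388 against 26.7 ± 3.02 CPM, and Klhl3, the ubiquitin ligase adaptor that removes WNK kinases, 2.9 ± 1.12 against 92.6 ± 11.6 CPM. Wnk1 transcripts were not separated by isoform.

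The basolateral exits showed the same order. Bsnd (barttin), a chloride channel subunit, had 25.5, 24.5, 32.4 and 28.8 CPM in the distal libraries and 0, 0, 0.0192 and 0 CPM in the proximal libraries (5788-fold higher in distal, counting interval 952 to 209749, adjusted p = 9.8e-10). Kcnj10 (Kir4.1) had 70.5, 101, 88.9 and 130 CPM in the distal libraries and 0.0839, 0.0211, 0.0192 and 0.186 CPM in the proximal libraries (log2 difference −10.58 ± 0.91, adjusted p = 7.1e-08). Its partner Kcnj16 (Kir5.1) was not called, at 215 ± 22.6 against 191 ± 23.8 CPM (adjusted p = 0.21). Kcnj15 (Kir4.2), another inward rectifier known to pair with Kcnj16, was higher in proximal tubule, at 269 ± 37.8 against 0.902 ± 0.359 CPM. The sodium pump subunit Atp1b1 had 311 ± 77.6 against 1012 ± 132 CPM. Among members against the direction of the list were Slc12a2 (NKCC1), at 11.7 ± 1.93 against 2.47 ± 0.695 CPM, the potassium-chloride cotransporter Slc12a7, at 15.3 ± 2.02 against 6.68 ± 2.18 CPM, Fxyd4, at 0.689 ± 0.264 against 0.217 ± 0.228 CPM, and the ligase scaffold Cul3, at 37.4 ± 1.41 against 31.2 ± 3.14 CPM. The call for Cul3 was lost with any 1 of 6 libraries left out (distal 2, 3 or 4, proximal 1, 2 or 6; adjusted p from 0.051 to 0.107) and with protein-coding scaling (log2 difference 0.01), and that for Fxyd4 without distal 3 (adjusted p = 0.0585). Slc12a1 (NKCC2), the cotransporter of the thick ascending limb and macula densa, had 0.285 ± 0.127 against 46.5 ± 28.1 CPM, and Umod, the thick limb protein uromodulin, 0.0269 ± 0.0216 against 169 ± 63.8 CPM. The part of thick limb cells in the distal pools was not tested.

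Calcium and magnesium genes had the lowest median of the 29 lists (−6.88; −4.63 with genes at 0 in 1 segment set at their bound), with 15 of 20 higher in distal and 2 in proximal tubule. The entry channel for magnesium, Trpm6 (ENSMUSG00000024727; GRCm38 chromosome 19, 18749983 to 18892511, + strand), had 30.1, 29.2, 33.1 and 44 CPM in the distal libraries and 0.021, 0, 0.0576 and 0.0928 CPM in the proximal libraries (log2 difference −9.76 ± 0.78, adjusted p = 3.4e-08; −9.13 without proximal 2). Its relative Trpm7 had 26.9 ± 5.09 against 71.2 ± 12.6 CPM, Cnnm2 2.07 ± 0.255 against 13.7 ± 3.65 CPM and Slc41a3 0.144 ± 0.115 against 10.9 ± 3.37 CPM. Egf, a growth factor that stimulates magnesium uptake, had 484, 483, 472 and 762 CPM in the distal libraries and 0.629, 0.527, 0.615 and 1.76 CPM in the proximal libraries (log2 difference −9.45 ± 0.39, adjusted p = 2.1e-11). For calcium the entry channel Trpv5 had 30.2, 37.1, 36.8 and 29.9 CPM in the distal libraries and 0, 0, 0.0192 and 0 CPM in the proximal libraries (6975-fold higher in distal, counting interval 1149 to 252926, adjusted p = 7.1e-10). The buffer Calb1 (calbindin-D28k) had 851, 939, 1336 and 966 CPM in the distal libraries and 0.0629, 0.19, 0.384 and 0.302 CPM in the proximal libraries (log2 difference −12.25 ± 0.56, adjusted p = 8.0e-11). The exit exchanger Slc8a1 (NCX1) had 740, 828, 1186 and 1152 CPM in the distal libraries and 0.294, 0.527, 0.788 and 0.348 CPM in the proximal libraries (log2 difference −10.98 ± 0.45, adjusted p = 2.0e-11). The plasma membrane calcium pump Atp2b4 had 0.111 ± 0.0966 against 30.5 ± 7.51 CPM. Pvalb (parvalbumin), a marker of the early part of the distal convoluted tubule, had 0.0217 ± 0.019 against 27.3 ± 5.03 CPM. Among members higher in proximal tubule was Pcbd1, a transcriptional cofactor listed here for its role in magnesium loss, at 54.4 ± 8.09 against 35 ± 1.26 CPM.

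In the list of the epithelial sodium channel and mineralocorticoid pathway 9 of 18 genes were higher in distal and 4 in proximal tubule (median −1.27). The channel subunits Scnn1a, Scnn1b and Scnn1g had 0.213 ± 0.231 against 109 ± 11.1 CPM, 0.00524 ± 0.0105 against 25.7 ± 2.81 CPM and 0.0163 ± 0.0109 against 55.5 ± 8.51 CPM. The potassium channel Kcnj1 (ROMK) had 153, 182, 191 and 213 CPM in the distal libraries and 0.021, 0.0421, 0.0768 and 0.0928 CPM in the proximal libraries (log2 difference −11.53 ± 0.67, adjusted p = 9.8e-10). Hsd11b2, which inactivates glucocorticoids and so keeps the mineralocorticoid receptor free for aldosterone, had 30.8, 41.5, 59.4 and 46.1 CPM in the distal libraries and 0, 0.0842, 0.0768 and 0.0464 CPM in the proximal libraries (log2 difference −9.85 ± 0.93, adjusted p = 2.1e-07; −9.11 without proximal 1). Nr3c2, the mineralocorticoid receptor, had 1.31 ± 0.333 against 16.8 ± 2.87 CPM, and the kinase Sgk1 6.27 ± 5.5 against 13 ± 3.46 CPM. On the proximal side lay the glucocorticoid receptor Nr3c1, at 24.8 ± 1.88 against 6.23 ± 0.642 CPM, the protease Prss8, at 39.5 ± 6.06 against 6.77 ± 1.6 CPM, and Klf9, at 25 ± 2.98 against 8.47 ± 1.15 CPM. Several of these genes also mark connecting tubule, whose list summed to 7255 to 9692 CPM in distal pools against 95.9 to 107 CPM in proximal pools. The part of connecting tubule in these differences was not tested.

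Among enzymes of glucose metabolism, most called genes of gluconeogenesis were higher in proximal tubule and most called genes of glycolysis in distal tubule. Of 11 gluconeogenic genes, 7 were higher in proximal and 2 in distal tubule (median 5.06). Pck1 (ENSMUSG00000027513; GRCm38 chromosome 2, 173153048 to 173159273, + strand), which makes phosphoenolpyruvate, had 735, 235, 208 and 291 CPM in the proximal libraries and 0.389, 1.22, 0.0263 and 0.855 CPM in the distal libraries (log2 difference 9.71 ± 1.16, adjusted p = 3.0e-06; 10.33 without distal 2 and 8.62 without distal 3), and with no filter on low counts its adjusted p was 0.0525. Fbp1, fructose bisphosphatase, had 159, 191, 212 and 158 CPM in the proximal libraries and 0.177, 0.258, 0 and 0.241 CPM in the distal libraries (log2 difference 10.58 ± 0.75, adjusted p = 8.8e-09; 9.53 without distal 3). G6pc, the catalytic subunit of glucose 6-phosphatase, had 95.3, 68.2, 125 and 44.9 CPM in the proximal libraries and 0.0354, 0.282, 0.0789 and 0.351 CPM in the distal libraries (log2 difference 8.90 ± 1.13, adjusted p = 5.6e-06). Pyruvate carboxylase, Pcx, had 21.3 ± 5.64 against 0.629 ± 0.259 CPM, and the glucose 6-phosphate carrier Slc37a4 32.6 ± 4.24 against 1.32 ± 0.596 CPM. Every proximal library lay far above every distal library for these genes. Members on the distal side were the broadly expressed phosphatase G6pc3, at 10.4 ± 0.807 against 18.2 ± 1.55 CPM, and the aspartate transaminase Got1, at 17.5 ± 1.85 against 35.4 ± 6.25 CPM.

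Of 20 genes of glycolysis and lactate, 12 were higher in distal and 4 in proximal tubule (median −0.81). Summed, the list had a median of 1071 CPM in proximal and 1211 CPM in distal libraries (exact permutation p = 0.0571). Hexokinase 1, Hk1, had 12.4, 16.6, 17.3 and 19 CPM in the distal libraries and 0.0419, 0.0421, 0.0384 and 0.0696 CPM in the proximal libraries (log2 difference −8.16 ± 0.65, adjusted p = 3.4e-08), while Hk2 and Hk3 had at most 0.0329 CPM as a mean in either segment. Phosphofructokinase genes Pfkm and Pfkp had 2.03 ± 0.139 against 10.4 ± 2.56 CPM and 0.868 ± 0.766 against 11.5 ± 2.23 CPM. Pyruvate kinase Pkm had 70.8, 61, 75.2 and 87.5 CPM in the distal libraries and 0.105, 0.19, 0.115 and 0.418 CPM in the proximal libraries (log2 difference −8.63 ± 0.51, adjusted p = 1.2e-09), and the liver form Pklr 2.62 ± 0.617 against 0 ± 0 CPM. The most uneven was Pgam2, the muscle form of phosphoglycerate mutase. Pgam2 had 113, 130, 131 and 122 CPM in the distal libraries and 0.147, 0.0211, 0.0192 and 0.139 CPM in the proximal libraries (log2 difference −10.86 ± 0.61, adjusted p = 7.2e-10), while the common form Pgam1 was not called, at 91.6 ± 12.1 against 101 ± 17.2 CPM (adjusted p = 0.416; with protein-coding scaling log2 difference −0.40, adjusted p = 0.00921). Per kb of exon, Pgam2 stood at 148 and Pgam1 at 50.7 CPM in distal tubule, against 0.0971 and 46.2 in proximal tubule. The lactate dehydrogenase genes went opposite ways: Ldha had 171 ± 25.9 against 45.2 ± 7.68 CPM (log2 difference 1.92 ± 0.14) and Ldhb 136 ± 13.9 against 263 ± 16.9 CPM (log2 difference −0.95 ± 0.10). Gapdh was higher in proximal tubule, at 392 ± 31.2 against 220 ± 17.1 CPM.

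Fructose and polyol enzymes were nearly all proximal (9 of 10 higher in proximal, 1 in distal, median 5.12). Ketohexokinase, Khk, which phosphorylates fructose, had 48, 54.7, 54.8 and 49.9 CPM in the proximal libraries and 1.77, 2.39, 1 and 0.658 CPM in the distal libraries (log2 difference 5.35 ± 0.28, adjusted p = 3.9e-10). Sorbitol dehydrogenase, Sord, had 227 ± 10.5 against 23.6 ± 3.12 CPM, and the inositol-degrading Miox 404 ± 60.4 against 0.363 ± 0.337 CPM. The exception was aldose reductase, Akr1b3, at 3.59 ± 0.396 against 6.37 ± 0.564 CPM.

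**Figure D4:**
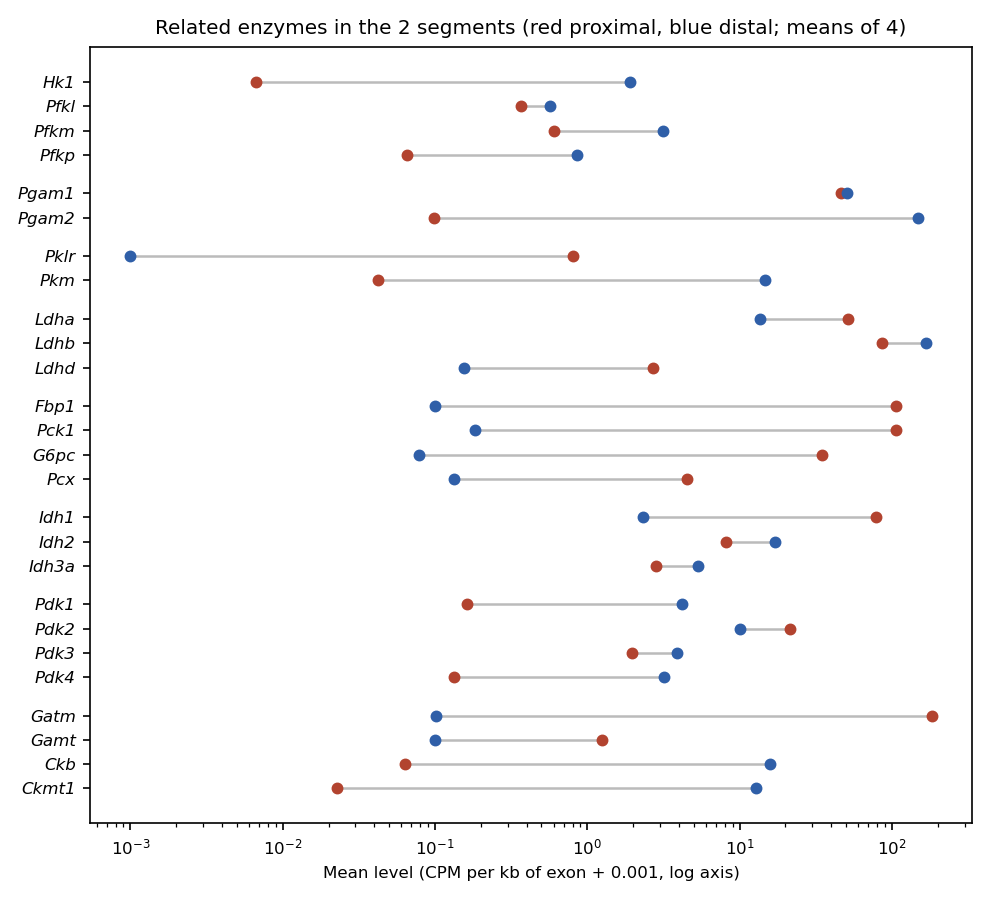
Mean level per kb of exon (CPM per kb, log axis after adding 0.001; n = 4 per segment) of related enzymes of sugar, citrate and creatine metabolism; red is proximal, blue is distal, and a grey line joins the 2 values of a gene. Fbp1, Pck1, G6pc and Gatm are red on the right, while Hk1, Pgam2, Pkm, Ckb and Ckmt1 are blue on the right.

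Fatty acid oxidation in mitochondria differed by smaller steps. Of 26 members 16 were higher in proximal and 4 in distal tubule (median 0.56). The largest differences were those of acyl-CoA synthetases of medium-chain acids: Acsm2 had 848, 834, 863 and 684 CPM in the proximal libraries and 1.24, 1.67, 1.68 and 2.3 CPM in the distal libraries (log2 difference 8.85 ± 0.22, adjusted p = 5.4e-14), and Acsm1 21.1 ± 3.08 against 0.0499 ± 0.0781 CPM. The core enzymes were closer. Acadm, medium-chain dehydrogenase, had 36.3 ± 3.14 against 21.8 ± 1.71 CPM (log2 difference 0.73 ± 0.11), and Cpt2 15.9 ± 1.8 against 6.48 ± 0.971 CPM (log2 difference 1.28 ± 0.15). On the distal side were both subunits of the trifunctional protein, Hadha at 20.4 ± 1.43 against 31.6 ± 1.87 CPM and Hadhb at 41.6 ± 2.74 against 86.2 ± 6.34 CPM, with Cpt1a at 51.5 ± 12.2 against 78.1 ± 5.23 CPM and Echs1 at 10.8 ± 1.97 against 21.7 ± 1.58 CPM. With protein-coding scaling 10 members were called higher in proximal and 6 in distal tubule (median 0.30), so the counts of this list move with the scaling.

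Peroxisomal enzymes were higher in proximal tubule in 23 of 27 cases (median 2.24). Dao, which oxidises D-amino acids, had 37, 42.9, 48.8 and 34.3 CPM in the proximal libraries and 0.0708, 0.211, 0 and 0.175 CPM in the distal libraries (log2 difference 8.87 ± 0.76, adjusted p = 6.9e-08; 7.96 without distal 3). Hao2, a hydroxy acid oxidase, had 48.8 ± 15.9 against 0.366 ± 0.146 CPM. Catalase, Cat, had 304, 321, 277 and 313 CPM in the proximal libraries and 32.7, 35.5, 31.3 and 28.6 CPM in the distal libraries (log2 difference 3.25 ± 0.10, adjusted p = 8.5e-13). In the other direction 1 member was called. The ketone body list was divided. Bdh2 had 15.2 ± 0.57 against 0.00658 ± 0.0132 CPM, while Bdh1 had 0.285 ± 0.27 against 5.05 ± 1.58 CPM and Oxct1, which uses ketone bodies, 189 ± 30.5 against 306 ± 24.5 CPM.

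The list of citric acid cycle and pyruvate entry ran the other way, with 17 of 30 genes higher in distal and 6 in proximal tubule and a median of −0.37. Summed, the list had a median of 1443 CPM in proximal and 1444 CPM in distal libraries (exact permutation p = 0.714). Citrate synthase, Cs, had 53.4, 57.5, 55.4 and 53.2 CPM in the proximal libraries and 85.9, 83.2, 95.4 and 87.5 CPM in the distal libraries (log2 difference −0.68 ± 0.09, adjusted p = 9.9e-06), and Mdh2 61.4 ± 3.01 against 85.3 ± 10.9 CPM. The mitochondrial isocitrate dehydrogenases Idh2 and Idh3a had 21 ± 4.45 against 43.9 ± 4.94 CPM and 14.3 ± 1.87 against 26.9 ± 5.09 CPM. The cytosolic NADPH-forming enzymes were proximal: Idh1 had 212, 219, 257 and 185 CPM in the proximal libraries and 6.72, 6.15, 5.16 and 7.52 CPM in the distal libraries (log2 difference 5.09 ± 0.16, adjusted p = 7.2e-13), and malic enzyme Me1 57 ± 7.94 against 0.293 ± 0.157 CPM. Pyruvate dehydrogenase kinases, which hold back pyruvate entry, also differed by gene. Pdk1 and Pdk4 were distal, at 1.24 ± 0.398 against 32.6 ± 0.629 CPM and 0.465 ± 0.164 against 11.1 ± 6.46 CPM, and Pdk2 proximal, at 67.9 ± 12.3 against 32 ± 5.76 CPM.

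Of 79 nuclear genes for subunits of the respiratory chain, 65 were called higher in distal and 1 (Cox6a2, a heart and muscle form) in proximal tubule, with a median log2 difference of −0.59, and 7 of the 65 differed by at least 2-fold. The 13 mitochondrially encoded subunits gave 10 higher in distal tubule, with the other 3 not called (median −0.48). mt-Co1 had 29412, 28499, 17744 and 32322 CPM in the proximal libraries and 48448, 53978, 53628 and 48699 CPM in the distal libraries (log2 difference −0.95 ± 0.16, adjusted p = 0.000139). The 4 distal libraries overlapped no proximal library for mt-Co1, but the steps were small beside those of the transporters. Both medians kept their sign with protein-coding scaling, at −0.86 and −0.74. Cytosolic ribosomal protein genes gave 25 of 80 higher in proximal and 1 (Rpl21) in distal tubule with a median of 0.23, which turned to −0.04 with protein-coding scaling (8 and 12 called). The call for Rpl21 was lost without distal 1, 3 or 4 or proximal 1, 2 or 6 (adjusted p from 0.0621 to 0.122). Ppargc1a, the coactivator of mitochondrial genes, had 44.4, 36.5, 35.5 and 41.8 CPM in the proximal libraries and 76.7, 65.8, 65.6 and 74.4 CPM in the distal libraries (log2 difference −0.84 ± 0.11, adjusted p = 6.0e-06).

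Amino acid metabolism was the largest of the 29 lists, with 51 tested genes, of which 37 were higher in proximal and 8 in distal tubule (median 3.00). Ass1 (ENSMUSG00000076441; GRCm38 chromosome 2, 31470207 to 31520672, + strand), which with Asl makes arginine from citrulline, had 893, 929, 1033 and 763 CPM in the proximal libraries and 0.991, 1.15, 1.03 and 1.49 CPM in the distal libraries (log2 difference 9.57 ± 0.25, adjusted p = 9.9e-14), and Asl 32.3 ± 5.23 against 2.95 ± 1.06 CPM. Enzymes of tryptophan breakdown through kynurenine were called higher in proximal tubule. Kmo had 24.5 ± 1.92 against 0 ± 0 CPM, Kynu 6.09 ± 2.16 against 0.0461 ± 0.0921 CPM and Haao 13.9 ± 1.78 against 0.0319 ± 0.0271 CPM. Of the next enzymes, Qprt, which leads toward NAD, had 9.07 ± 0.561 against 0.0124 ± 0.0144 CPM, and Acmsd, which leads away from it, 51.1 ± 20.4 against 0.0165 ± 0.0329 CPM. Hgd, an enzyme of tyrosine degradation, had 69.1 ± 1.66 against 0.305 ± 0.353 CPM. Glul, which makes glutamine, and Glud1, glutamate dehydrogenase, had 121 ± 47.7 against 15.2 ± 2.47 CPM and 229 ± 31.2 against 143 ± 13.1 CPM.

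Creatine genes were on opposite sides. The synthesis enzymes Gatm and Gamt were proximal, with Gamt at 1.8 ± 0.257 against 0.142 ± 0.109 CPM. Brain-type creatine kinase, Ckb, had 37.9, 31.2, 57 and 56.5 CPM in the distal libraries and 0, 0.211, 0.231 and 0.278 CPM in the proximal libraries (log2 difference −8.63 ± 0.93, adjusted p = 8.9e-07; −7.48 without proximal 1), and mitochondrial Ckmt1 had 33.5, 32.2, 31.8 and 30.7 CPM in the distal libraries and 0, 0, 0.0768 and 0.139 CPM in the proximal libraries (log2 difference −9.85 ± 0.70, adjusted p = 9.1e-09; −10.55 without proximal 6). The distal libraries were all high for both kinases. Bcat2, which starts the breakdown of branched-chain amino acids, had 0.645 ± 0.182 against 9.13 ± 1.78 CPM, also higher in distal tubule.

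Vitamin D, retinoid and steroid genes were higher in proximal tubule in 12 of 14 cases (median 7.60). Cyp24a1, which breaks down active vitamin D, had 31, 24.6, 48.9 and 15 CPM in the proximal libraries and 0, 0, 0 and 0.0439 CPM in the distal libraries (2724-fold higher in proximal, counting interval 656 to 19566, adjusted p = 7.1e-06). Cyp27b1, which activates it, had 4.32, 1.68, 2.27 and 0.835 CPM in the proximal libraries and 0, 0, 0 and 0 CPM in the distal libraries (at least 28.3-fold higher in proximal, adjusted p = 1.2e-05). The receptor Vdr was the exception. Vdr had 44.5, 77.9, 72.6 and 89.4 CPM in the distal libraries and 24, 33.6, 37.9 and 30 CPM in the proximal libraries (log2 difference −1.17 ± 0.19, adjusted p = 6.3e-05). Steroid enzymes Akr1c21 and Hsd3b2 had 400 ± 65.8 against 0.673 ± 0.706 CPM and 41.5 ± 10.7 against 0.111 ± 0.166 CPM. Of 37 tested cytochromes P450, 25 were higher in proximal and 10 in distal tubule (median 5.54, or 4.26 with genes at 0 in 1 segment set at their bound). Cyp4b1 had 509 ± 118 against 2.08 ± 0.954 CPM, Cyp2j5 231 ± 5.69 against 0.321 ± 0.176 CPM and Cyp2e1 204 ± 86.8 against 0.379 ± 0.139 CPM. Of 12 UDP-glucuronosyltransferases 11 were higher in proximal tubule and 1 was not called. Members of these families have near-identical copies, so reads of single members are uncertain.

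Redox genes gave 14 of 25 higher in proximal and 6 in distal tubule (median 0.74). Besides Gpx3, Gpx1 had 524, 608, 635 and 904 CPM in the proximal libraries and 67.1, 63.6, 78.9 and 68.8 CPM in the distal libraries (log2 difference 3.24 ± 0.14, adjusted p = 4.1e-11), and the extracellular superoxide dismutase Sod3 91 ± 6.09 against 0.146 ± 0.226 CPM. Genes of glutathione synthesis went both ways. Gss and Gclm had 30.9 ± 4.57 against 3.4 ± 1.49 CPM and 39.3 ± 5.7 against 9.63 ± 0.653 CPM, while the catalytic subunit Gclc had 19.3 ± 3.64 against 55.1 ± 12.5 CPM. Nfe2l2 (NRF2), an activator of many redox genes, had 13.5 ± 1.37 against 29.8 ± 1.88 CPM, higher in distal tubule. Gpx6, a further glutathione peroxidase, was higher in distal tubule, at 0.0556 ± 0.0529 against 45.7 ± 10.7 CPM.

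Of 21 tested transcription factors listed for proximal tubule, 12 were higher there and 5 in distal tubule (median 1.17). Hnf4a (ENSMUSG00000017950; GRCm38 chromosome 2, 163506808 to 163572910, + strand), a nuclear receptor that drives proximal differentiation, had 111, 88.7, 94.4 and 89.7 CPM in the proximal libraries and 0.0708, 0.563, 0.105 and 0.417 CPM in the distal libraries (log2 difference 8.61 ± 0.52, adjusted p = 1.5e-09). Its relative Hnf4g had 2.41 ± 0.809 against 0 ± 0 CPM. Maf, a leucine zipper factor, had 89.6, 70.4, 75.3 and 67.6 CPM in the proximal libraries and 0.389, 0.376, 0.421 and 0.636 CPM in the distal libraries (log2 difference 7.34 ± 0.36, adjusted p = 1.5e-10). Nr1h4 (FXR), the bile acid receptor, had 32 ± 8.78 against 0.527 ± 0.251 CPM, and Ppara, which drives fatty acid oxidation genes, 10.4 ± 2.55 against 1.27 ± 0.6 CPM. Among members against the direction of the list was Foxo3, at 12.7 ± 3.5 against 22.4 ± 4.31 CPM.

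Of 28 factors listed for the distal nephron, 23 were higher in distal and 3 in proximal tubule (median −4.34). Tfap2b (ENSMUSG00000025927; GRCm38 chromosome 1, 19208914 to 19238576, + strand), an AP-2 factor, had 52, 51.4, 44.9 and 52.8 CPM in the distal libraries and 0, 0.0842, 0 and 0.0464 CPM in the proximal libraries (log2 difference −10.85 ± 0.68, adjusted p = 2.4e-09; −11.44 without proximal 2). Mecom had 42.2, 47.7, 45 and 50.3 CPM in the distal libraries and 0.021, 0.0632, 0.0192 and 0.0464 CPM in the proximal libraries (log2 difference −10.03 ± 0.59, adjusted p = 1.1e-09). Prox1 had 0.0058 ± 0.0116 against 12.6 ± 0.869 CPM, Gata3 0.0048 ± 0.00961 against 9.14 ± 1.34 CPM, Sim1 0.0345 ± 0.0456 against 11.8 ± 1.37 CPM and Pou3f3 0.255 ± 0.24 against 10.3 ± 1.58 CPM. Tfcp2l1 was present in both and higher in distal tubule, at 50.3 ± 8.63 against 315 ± 14 CPM. Of the estrogen-related receptors, Esrrb had 9.24, 11.6, 7.92 and 9.87 CPM in the distal libraries and 0.44, 0.527, 0.154 and 0.139 CPM in the proximal libraries (log2 difference −5.11 ± 0.44, adjusted p = 7.3e-08), and Esrrg 20.8 ± 3.83 against 35.9 ± 5.61 CPM. The 3 factors of the list on the proximal side, Pax2, Pax8 and Emx2, had 3.58 ± 0.536 against 2.25 ± 0.754 CPM, 10.7 ± 2.65 against 6.39 ± 0.903 CPM and 2.24 ± 0.272 against 1.42 ± 0.606 CPM. The calls for Pax2 (without distal 1, 2 or 3 or proximal 1 or 6) and Emx2 (without distal 2 or 3 or proximal 2 or 3) were lost with 1 library left out, with adjusted p up to 0.101 and 0.096.

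Hox genes, which pattern the embryo along its main axis, were unevenly divided: 8 of 16 tested were higher in distal and 1 in proximal tubule (median −1.70). Hoxd8 had 70.5, 78, 83.7 and 92.3 CPM in the distal libraries and 1.8, 3.29, 3.69 and 1.67 CPM in the proximal libraries (log2 difference −5.02 ± 0.22, adjusted p = 4.0e-11). Its neighbours Hoxd9 and Hoxd10 had 0.702 ± 0.227 against 20 ± 3.5 CPM and 0.187 ± 0.179 against 13.9 ± 1.81 CPM. In the Hoxb cluster Hoxb5, Hoxb6, Hoxb7, Hoxb8 and Hoxb9 were all called higher in distal tubule, from 0.186 ± 0.146 against 1.3 ± 0.636 CPM for Hoxb5 to 0.245 ± 0.119 against 4.65 ± 0.681 CPM for Hoxb8. Hoxa genes were not: Hoxa7, Hoxa9 and Hoxa10 had 3.2 ± 1.02 against 3.65 ± 0.928 CPM, 2.43 ± 0.484 against 3.35 ± 1.38 CPM and 3.32 ± 0.84 against 2.54 ± 0.375 CPM, none of them called. The gene on the proximal side was Hoxc6, at 1.18 ± 0.472 against 0.494 ± 0.167 CPM, whose call was lost without distal 1, 2 or 4 or proximal 1 or 3 (adjusted p up to 0.0809). Whether the clusters differ from each other was not tested. Zinc finger genes of the Zfp series gave 89 of 324 higher in distal and 23 in proximal tubule. Over all tested genes 25.1% were higher in distal and 23.6% in proximal tubule. With protein-coding scaling the Zfp counts were 145 in distal and 15 in proximal tubule.

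Of 43 receptors and signalling genes, 15 were higher in proximal and 22 in distal tubule (median −0.86). The angiotensin receptor Agtr1a had 8.83, 12.6, 12.2 and 8.12 CPM in the proximal libraries and 0.319, 0.164, 0.342 and 0.0658 CPM in the distal libraries (log2 difference 5.76 ± 0.57, adjusted p = 3.4e-07). The growth hormone receptor Ghr had 93.1 ± 12.1 against 19.6 ± 2.44 CPM, and the growth factor receptor Egfr 31.6 ± 5.91 against 2.99 ± 1.14 CPM. Pth1r, the parathyroid hormone receptor, was detected in both segments and higher in proximal tubule, at 52.3 ± 3.23 against 23 ± 3.65 CPM (log2 difference 1.19 ± 0.12). On the distal side the calcium-sensing receptor Casr had 16.7, 15.8, 16.1 and 25.2 CPM in the distal libraries and 0, 0, 0.0192 and 0 CPM in the proximal libraries (3846-fold higher in distal, counting interval 643 to 141650, adjusted p = 1.2e-08). The vasopressin receptor Avpr1a had 0 ± 0 against 11.2 ± 6.71 CPM, while Avpr2 had 0 ± 0 against 0.0241 ± 0.0281 CPM and was not tested. Fgfr2 had 0.00527 ± 0.0105 against 11 ± 2.52 CPM, the glucagon receptor Gcgr 0.00524 ± 0.0105 against 4.18 ± 0.629 CPM, and the insulin receptor substrate Irs1 0.429 ± 0.0849 against 9.78 ± 1.96 CPM. The insulin receptor itself, Insr, was not called, at 30.2 ± 3.63 against 26.3 ± 1.05 CPM (adjusted p = 0.179). Kl (klotho), the coreceptor for the phosphate hormone FGF23, had 207, 201, 193 and 188 CPM in the proximal libraries and 682, 678, 1019 and 932 CPM in the distal libraries (log2 difference −2.04 ± 0.12, adjusted p = 1.7e-09). All 4 distal libraries were above all proximal libraries for Kl.

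**Figure D5:**
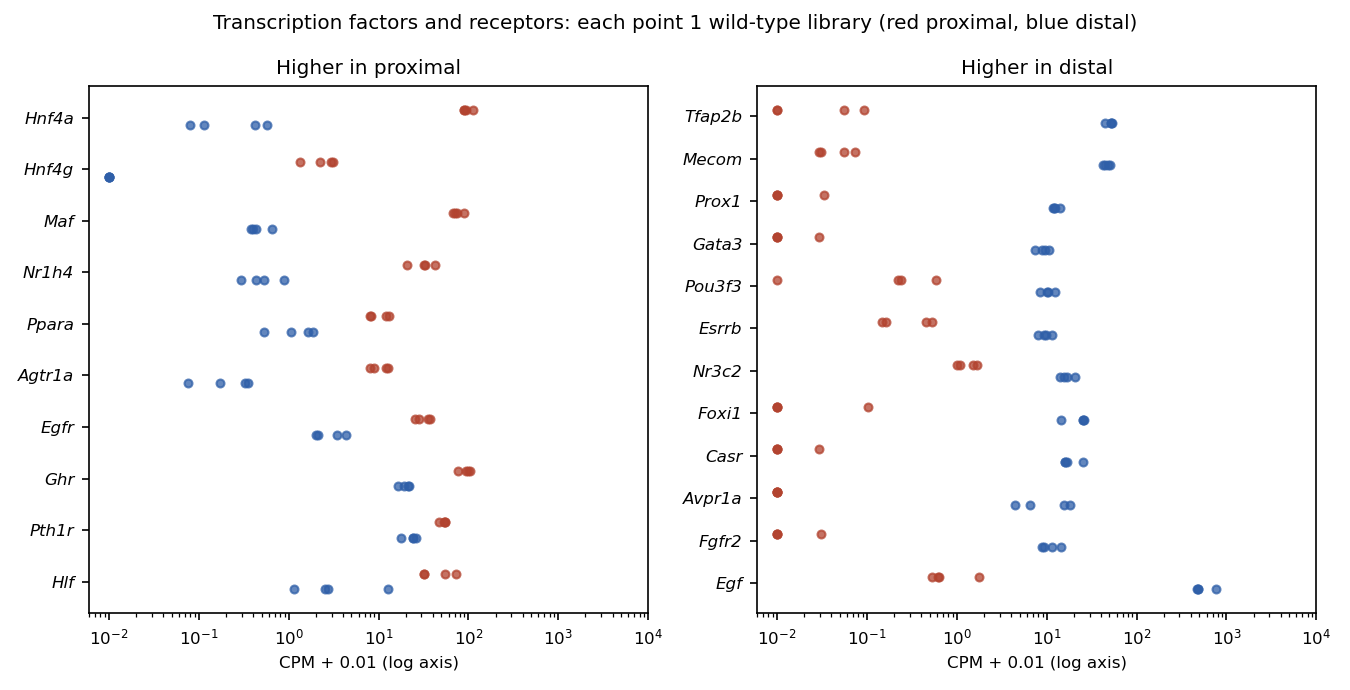
CPM of 22 transcription factors, receptors and ligands in each wild-type library (log axis after adding 0.01); red points are the 4 proximal and blue points the 4 distal libraries. Hnf4a, Maf and Nr1h4 stand on the proximal side and Tfap2b, Mecom, Prox1 and Casr on the distal side, with Pth1r the closest pair at 52.3 against 23 CPM.

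Clock and early response genes vary with the hour and with tissue handling, so they were read separately. Of 19 clock genes, 3 were called, each higher in proximal tubule. The called genes were Hlf, at 47.9 ± 20.2 against 4.78 ± 5.34 CPM (log2 difference 3.77 ± 0.49; 4.49 without distal 2), Rora, at 24.1 ± 6.93 against 9.52 ± 0.888 CPM, and Tef, at 10.5 ± 5.27 against 5.28 ± 5.46 CPM. The call for Tef was lost without distal 1, 3 or 4 or proximal 1 or 6 (adjusted p from 0.074 to 0.162). Of 21 early response genes, 13 were higher in distal and 2, Zfp36 and Myc, in proximal tubule. The call for Zfp36 was lost without distal 2, 3 or 4 or proximal 1 or 6 (adjusted p from 0.0533 to 0.125) and with protein-coding scaling (0.227). Fos had 0.273, 0.295, 0.211 and 0.441 CPM in the proximal libraries and 7.01, 4.79, 3.34 and 3.03 CPM in the distal libraries (log2 difference −3.79 ± 0.48, adjusted p = 5.5e-06), and Egr1 1.82 ± 0.546 against 10.6 ± 2.69 CPM. Summed, the list had 41.7 to 66.5 CPM in proximal and 86.4 to 122 CPM in distal libraries. Injury genes gave 5 calls of 12, each higher in distal tubule: Spp1 (osteopontin), at 140 ± 42.2 against 397 ± 53.4 CPM, Clu, Krt18, Sox4 and Sox9. Havcr1 and Lcn2, the usual genes of tubular damage, had 0.557 ± 0.566 against 0.0293 ± 0.0587 CPM and 0 ± 0 against 0.0352 ± 0.0704 CPM. Their part in the other differences was not tested.

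Letters of binding sites were counted in promoters, 250 bases before to 50 after a RefSeq gene start (GRCm38.p6), because Hnf4a was among the regulators that differed. A promoter was found by symbol for 858 of 1117 protein-coding genes called and at least 4-fold higher in proximal tubule, for 901 of 1195 higher in distal tubule, and for 9006 of all 11367 tested. The HNF4 letters CAAAGTCCA, on either strand, were in 14 proximal promoters (1.63%), 2 distal promoters (Clec14a and Zfp28; 0.222%) and 37 of all tested (0.411%). The AP-2 letters GCCNNNGGC, which are common in GC-rich promoters, were in 22.7%, 25.9% and 25% of promoters, and the letters TCAAGGTCA of estrogen-related receptors in 0.117%, 0% and 0.233%. The letters of HNF1, planned beside these, were not counted. These are descriptions without a test, and a match is not a site shown to be bound.

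Promoters of 2 genes higher in proximal tubule are printed to show where such letters lie; they were chosen after the matches were seen. Slc3a1 and Pipox have the highest proximal levels among the 14 genes with HNF4 letters. Each runs 5′ to 3′ on the gene's strand, and capitals mark the matching letters. Slc3a1, the cystine transporter heavy chain (chr17:85028097-85028396, + strand, HNF4 letters from 39 bases before the start):
Slc3a1: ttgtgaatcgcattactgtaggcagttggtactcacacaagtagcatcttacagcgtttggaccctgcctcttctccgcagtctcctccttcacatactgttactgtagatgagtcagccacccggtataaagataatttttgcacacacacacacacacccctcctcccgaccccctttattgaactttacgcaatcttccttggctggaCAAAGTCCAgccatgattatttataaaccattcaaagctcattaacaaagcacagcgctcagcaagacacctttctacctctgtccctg
Pipox, a peroxisomal enzyme that oxidises pipecolic acid, at 38.5 ± 4.7 against 1.52 ± 0.606 CPM (chr11:77893823-77894122, − strand, HNF4 letters on the other strand from 15 bases after the start):
Pipox: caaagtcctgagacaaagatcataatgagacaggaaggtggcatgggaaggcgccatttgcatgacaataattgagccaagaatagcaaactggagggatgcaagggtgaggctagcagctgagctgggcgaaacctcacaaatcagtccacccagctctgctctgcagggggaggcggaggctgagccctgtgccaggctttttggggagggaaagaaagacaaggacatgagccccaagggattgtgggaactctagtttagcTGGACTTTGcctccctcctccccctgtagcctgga

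The segment comparison was repeated in the 7 knockout libraries, which share no sample with the wild-type comparison. There 13834 genes were tested, and 2826 (20.4%) were called higher in proximal and 2795 (20.2%) higher in distal tubule. Of the 6631 genes called in wild type, 6482 were tested in knockout, 6364 had the same sign, 4752 of these were also called, and 2 were called with the opposite sign, Lpl (lipoprotein lipase; log2 difference −0.82 in wild type and 0.59 in knockout) and AC134468.1 (0.87 and −0.59). For the 4481 genes at least 2-fold apart, 4332 were tested, 4285 had the same sign and 3657 of these were called. Slc34a1 had a log2 difference of 10.65 in knockout against 10.38 in wild type, Gatm 11.32 against 10.87, Wnk1 −5.55 against −5.35, and Kl −2.19 against −2.04. A test of the difference between the genotypes' segment differences (limma interaction over 15 libraries) called 0 of 15279 genes. Before adjustment 849 genes had p under 0.05, and the lowest adjusted value was 0.118. That the 2 genotypes' segment differences are alike is not shown by this.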

How the data were processed

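RNA of pooled tubules was sequenced (Nextera XT libraries, per the labels). The deposited table holds 54752 genes in 15 libraries, and its values are whole read counts per gene made by the authors; CASAVA 1.8, STAR 2.5, DESeq2 1.24.0 and build GRCm38 are named in the submitters' processing notes. Not given in the sources used here: the counting program, its strand setting and its annotation. Rows without a gene symbol (29) held under 0.001% of the counts.

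From these counts, libraries were scaled by trimmed means of M values, and a gene was tested with at least about 10 counts (at the median depth) in 4 libraries and 15 in all. Differences came from limma 3.58.1 (voom, R 4.3.3) on the 8 wild-type libraries, with Benjamini-Hochberg adjustment over all tested genes. The fit was also run on simulated counts. Few genes were changed there and by small factors, so that run does not show how the fit handles the many large differences here. CPM is the count per 1000000 of the scaled library total, and levels per kb divide it by the exon length in GENCODE M21. Library-level values were compared by exact two-sided permutation tests. With 36056160 to 47061084 counts per library, of which 8.04 to 19.7% fell on nuclear protein-coding genes, 3 counts set the floor of a library.

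Alternatives were other scalings, filters, weights, the replicate block and each library left out. The gene lists, the markers and the segment comparison were chosen with earlier results of these data known. Named genes are up to 12 per direction with the largest differences at 50 CPM or more, and in each list the first 3 members, up to 4 per direction with the smallest p at 5 CPM or more and up to 2 against the list's direction (3 per direction in families, 8 for transcription factors). Some genes that this rule picks are not reported here. Named outside that rule, after their values were seen, were Car2, Magi2, Podxl, Nphs1, Wt1, Ptpro, Hba-a1, Hba-a2, Cltrn, Slc7a5, Slc7a6, Slc34a3, Xpr1, Slc16a1, Slc16a9, Slc16a14, Slc22a12, Folr1, Ctsh, Lamp1, Rab7, Vil1, Myo7b, Pdzk1, Mep1a, Dpep1, Ezr, Kap, Spink1, Atp6v1g3, Cldn10, Cldn7, Cldn4, Stk39, Bsnd, Kcnj10, Kcnj16, Atp1b1, Fxyd4, Cnnm2, Atp2b4, Pvalb, Sgk1, Hk2, Hk3, Pfkp, Pklr, Pgam1, Ldhb, Miox, Dao, Hao2, Mdh2, Idh3a, Pdk4, Cox6a2, Asl, Kmo, Kynu, Haao, Qprt, Hgd, Glul, Gamt, Hsd3b2, Cyp2e1, Sod3, Hnf4g, Pou3f3, Pax2, Hoxb5, Hoxb6, Hoxb7, Hoxb8, Hoxb9, Hoxa7, Hoxa9, Hoxa10, Hoxc6, Avpr1a, Avpr2, Gcgr, Insr, Krt18, Sox4, Sox9, Clec14a, Zfp28, Pipox, Lpl and Tnfsf10.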

Additional observations from a re-analysis of the deposited data

Results flagged for a closer look

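For each gene named above, the highest and the lowest of the 4 libraries of a segment were set against the other 3 by Dixon's test at the 95% level. Groups with a mean under 10 counts per library were not examined. Of 441 groups, 29 (6.58%) had a library that stood apart, while chance gives about 1 in 20.

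Cyp2d26 had 114 CPM in proximal replicate 3, and its other 3 proximal libraries had 80.2 to 85.5 CPM. In proximal replicate 1 Slc47a1 stood at 85.2 CPM against 109 to 114 CPM in the other 3. Distal replicate 4 held Slc12a3 at 845 CPM, with 615 to 649 CPM in the rest of its group. Slc1a1 had 35.4 CPM in proximal replicate 1, and its other 3 proximal libraries had 51 to 53.6 CPM. In distal replicate 4 Slc1a1 stood at 1.01 CPM against 0.376 to 0.425 CPM in the other 3. Proximal replicate 1 held Cubn at 489 CPM, with 390 to 406 CPM in the rest of its group. Ctsd had 50.1 CPM in distal replicate 4, and its other 3 distal libraries had 42 to 42.7 CPM. In proximal replicate 1 Slc4a4 stood at 1029 CPM against 871 to 887 CPM in the other 3. Distal replicate 2 held Slc4a4 at 2.28 CPM, with 0.605 to 0.855 CPM in the rest of its group. Foxi1 had 14.4 CPM in distal replicate 4, and its other 3 distal libraries had 25.3 to 25.9 CPM. In distal replicate 4 Aqp11 stood at 0.724 CPM against 1.77 to 1.89 CPM in the other 3. Proximal replicate 1 held Kcnj15 at 325 CPM, with 244 to 256 CPM in the rest of its group. Atp1b1 had 427 CPM in proximal replicate 1, and its other 3 proximal libraries had 257 to 283 CPM. Proximal replicate 6 held Egf at 1.76 CPM, with 0.527 to 0.629 CPM in the rest of its group. Egf had 762 CPM in distal replicate 4, and its other 3 distal libraries had 472 to 484 CPM. In proximal replicate 3 Klf9 stood at 20.5 CPM against 26.2 to 26.8 CPM in the other 3. Proximal replicate 1 held Pck1 at 735 CPM, with 208 to 291 CPM in the rest of its group. Ldhb had 238 CPM in distal replicate 1, and its other 3 distal libraries had 269 to 275 CPM. In proximal replicate 3 Sord stood at 243 CPM against 220 to 223 CPM in the other 3. Proximal replicate 6 held Acsm2 at 684 CPM, with 834 to 863 CPM in the rest of its group. Idh2 had 27.7 CPM in proximal replicate 3, and its other 3 proximal libraries had 18.2 to 19.5 CPM. In proximal replicate 6 Pdk1 stood at 1.83 CPM against 0.964 to 1.1 CPM in the other 3. Proximal replicate 3 held Pdk4 at 0.711 CPM, with 0.371 to 0.4 CPM in the rest of its group. In proximal replicate 6 Hoxa7 stood at 4.71 CPM against 2.58 to 2.86 CPM in the other 3. Proximal replicate 2 held Hoxa9 at 1.71 CPM, with 2.62 to 2.74 CPM in the rest of its group. Pth1r had 47.5 CPM in proximal replicate 1, and its other 3 proximal libraries had 53.6 to 54.1 CPM. In distal replicate 4 Casr stood at 25.2 CPM against 15.8 to 16.7 CPM in the other 3. Distal replicate 2 held Hlf at 12.7 CPM, with 1.13 to 2.73 CPM in the rest of its group. Tnfsf10 had 3.73 CPM in proximal replicate 6 and 1.38 to 1.68 CPM in the other 3.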

How the results depend on the processing

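The count of called genes (6631) and that of genes called and at least 2-fold apart (4481) stayed within 1.5 times their value under each of the 17 alternatives in scaling, filter, weights and libraries used, and the first also with an adjusted p under 0.01 (5189). A required log2 difference of at least 2 left 2642 genes. Left-out libraries gave 6273 to 6612 called genes, 4501 to 4696 at least 2-fold apart, 4854 to 5577 called genes in knockout, and 0 to 1 for the genotype interaction, where the 1 gene was Gsta4, Tnfsf10 or AC134468.1. Replicate numbers 1, 2 and 3 occur in both segments, but same-numbered libraries did not deviate together (correlations 0.0144, −0.0345 and 0.0487; 3 of 6 libraries correlated best with their own number). The replicate block, fitted all the same, called 2879 genes higher in proximal and 3092 in distal tubule, and 6 of the 261 called genes named here lost the call, among them Lpl (−0.61, adjusted p = 0.0871). The largest change in balance came from protein-coding scaling, with 34.3% of calls higher in proximal tubule against 48.4%. It turned the median of cytosolic ribosomal protein genes to −0.04 and the log2 differences of the uncalled genes Slc5a1 (−0.09), Ezr (−0.02), Kcnj16 (−0.09) and Insr (−0.08); the cause was not tested. Slc5a1 ranged from −0.47 to 1.64 with 1 library left out (−0.10 without distal 2, −0.16 without distal 3, −0.13 without proximal 1 and −0.11 without proximal 2). Of the 261 called genes, 13 lost the call in some alternative, 9 of them with a library left out, and 0 turned direction. The share of nuclear protein-coding counts differed by 4.45 to 6.85 percentage points with 1 library left out; without distal 1, 2, 3 or 4 it was 5.28, 5.86, 5.74 and 6.47 (exact two-sided permutation p = 0.0571 in each case). With all 8 libraries the difference in mitochondrially encoded mRNA was −2.01 percentage points (exact permutation p = 0.0857). That in genes detected was −549 (exact permutation p = 0.171). With 1 library left out they ran from −2.74 to −1.17 percentage points and from −783 to −369. Both had p = 0.0286 without distal 1 (exact permutation test, 4 against 3), and p was 0.114 or more without any other library. With few nuclear counts per library, genes near 0 in 1 segment have folds that depth limits.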

Other observations

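Endothelial RNA was unevenly shared by the pools. Of 13 tested endothelial markers, 13 were called higher in distal tubule, with sums of 15.3 to 29.9 CPM in proximal and 64.2 to 86.5 CPM in distal libraries. Markers of the macula densa, the cell plaque beside the early distal tubule, summed to 0 to 0.307 CPM in proximal and 4.65 to 19 CPM in distal libraries. Among 198 tested lincRNA genes, long noncoding RNAs from between genes, 58 were called higher in proximal and 58 in distal tubule.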
